A study of Mus musculus with 7 samples.

Results

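The cortical neuropeptide genes are 10 genes that encode the peptide transmitters used to tell classes of cortical neurons apart: Sst, Cort, Npy, Vip, Cck, Crh, Tac1, Penk, Pdyn and Adcyap1. They were chosen by symbol, and each matched 1 of the 56941 rows of the deposited table. Transcript levels were measured by RNA sequencing of fresh cerebral cortex from mice at postnatal day 7. There were 3 libraries from mice carrying P213L, a variant of the RNA-binding protein Hnrnph2, and 4 from wild-type (WT) mice. The labels give no strain, sex or zygosity, and do not say that each library came from a separate animal, and the p-values below cover only the spread from library to library.

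Neuropeptides are cut from larger precursor proteins in the secretory pathway, packed into dense-core granules and released to act on G protein-coupled receptors, usually more slowly and over longer distances than GABA or glutamate. In the cortex, somatostatin (Sst), vasoactive intestinal peptide (Vip) and neuropeptide Y (Npy) mark separate or partly overlapping sets of inhibitory interneurons. Cholecystokinin (Cck) is made both by a set of interneurons and by many excitatory neurons. Most of these classes are still maturing during the first postnatal weeks.

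Several peptide genes are textbook targets of CREB, a transcription factor that answers to cyclic AMP and calcium through the cyclic AMP response element, and Sst is the gene in which that element was defined. To show it in sequence, the mouse promoter windows of RefSeq (GRCm38.p6, the same assembly as mm10, 250 bases before to 50 after each start) were searched on both strands for the full element TGACGTCA and its first 7 letters, TGACGTC, which lie inside it. Windows were present for 8 of the 10 genes, and Crh and Penk were not matched. The full element stood in the window of Sst alone among those 8, and in 2.03% of all genes with a window. The 7 letters stood in Sst, Vip and Adcyap1, and in 3.60% of all genes. The letters in capitals below mark the match, each line reads 5′ to 3′ on the strand of the gene, and the first base of the match lay 48 bases before the start in Sst, 79 in Vip and 91 in Adcyap1, whose match lay 242 bases before its other listed start.
Sst (chr16:23890874-23890903, minus strand): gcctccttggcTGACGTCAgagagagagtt
Vip (chr10:5639128-5639156, plus strand): gatcactactgTGACGTCtttcggggagc
Adcyap1 (chr17:93198915-93198943, plus strand): gactaggatgcTGACGTCttttactgata
The stretch of Sst lies before the RefSeq start but inside the longer first exon that GENCODE vM21 gives. A match of letters does not show that the site is used in this tissue.

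One WT library has to be introduced before the values. Library depth, estimated from the lowest values, ran from 57.2 M counted units (M, 1000000) in WT replicate 3 to 79.4 M, and the peptide genes rested on 281 units (Crh) to 19894 units (Sst) in a library. WT replicate 3 correlated less well with the other 6 libraries across the 17582 genes that averaged 1 TPM (transcripts per 1000000) or more, with r of at most 0.949. Its mean transcript length weighted by TPM was 3251 bases, against 3975 to 4026 in the rest. In that library protein-coding genes of 500 to 1000 bases had a median deviation of 0.57 on the log2 scale from the mean of the other 6, and those over 8000 bases one of -0.75. All 10 peptide genes had their highest value there, which held for 21.6% of all tested genes. The fold changes of the peptide genes are therefore given with and without this library. WT replicate 2 stood apart in Ttr, a choroid plexus transcript, at 1216 TPM against at most 1.36 TPM elsewhere.

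Excitatory neuron genes that mark the cortex were present in both groups. Slc17a7, the vesicular glutamate transporter of cortical projection neurons, averaged 575 TPM in P213L and 547 TPM in WT, with 248 TPM in WT replicate 3, and its log2 fold change of 0.17 was -0.17 without that library. Of the inhibitory markers, Gad1, an enzyme of GABA synthesis, averaged 72.5 TPM in P213L and 71.2 TPM in WT. The tissue also held transcripts typical of striatal neurons, a class rich in Penk, Pdyn and Tac1. Ppp1r1b, the phosphoprotein DARPP-32, averaged 259 TPM in P213L and 269 TPM in WT, and the dopamine receptors Drd1 and Drd2 averaged 27.8 and 25.3 TPM in P213L, against 27.1 and 24.6 TPM in WT. Summed over the 14 striatal genes, the range was 791 to 844 TPM in P213L and 774 to 983 TPM in the WT libraries other than replicate 3. The sum was lowest, at 651 TPM, in WT replicate 3, where Penk, Pdyn and Tac1 were highest. The striatal part in those 3 peptides was not tested. In whole tissue, fewer cells of a class and less RNA per cell cannot be told apart.

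Across the 10 genes, the groups overlapped for every peptide but Cck. Vip and Cck had the fold changes furthest below 0, at -0.53 and -0.40 on the log2 scale. Neither was clearly separated, since the Vip groups overlapped and the limma interval for Cck with all libraries, -0.91 to 0.11, included 0. None of the 10 passed an adjusted p of 0.05 in limma, which called 0% of the 17582 genes. An unadjusted p under 0.05 was reached by 1 of the 10 (Vip) and by 3.74% of all genes (1.38% lower and 2.36% higher in P213L). All 10 fold changes were below 0, with a median of -0.16 on the log2 scale, where 36.6% of all tested genes were below 0 and their median was 0.07. Without WT replicate 3, 7 of the 10 were below 0 and the median was -0.02, against 50.3% of genes below 0. Vip and Cck then had an unadjusted p under 0.05, which 8.65% of genes reached (3.95% lower in P213L), and again none passed adjustment. The calls changed under 1 alternative, limma with sample weights, which gives less weight to libraries far from their group. That fit called 3981 of the 17582 genes tested and 2 of the 10 peptide genes, so calls were common over the whole table. The 2 were Vip (-0.51, limma adjusted p = 0.00663) and Cck (-0.19, limma adjusted p = 0.026). The weighted fit put the other peptides at 6 above and 2 below 0.

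**Figure D1:**
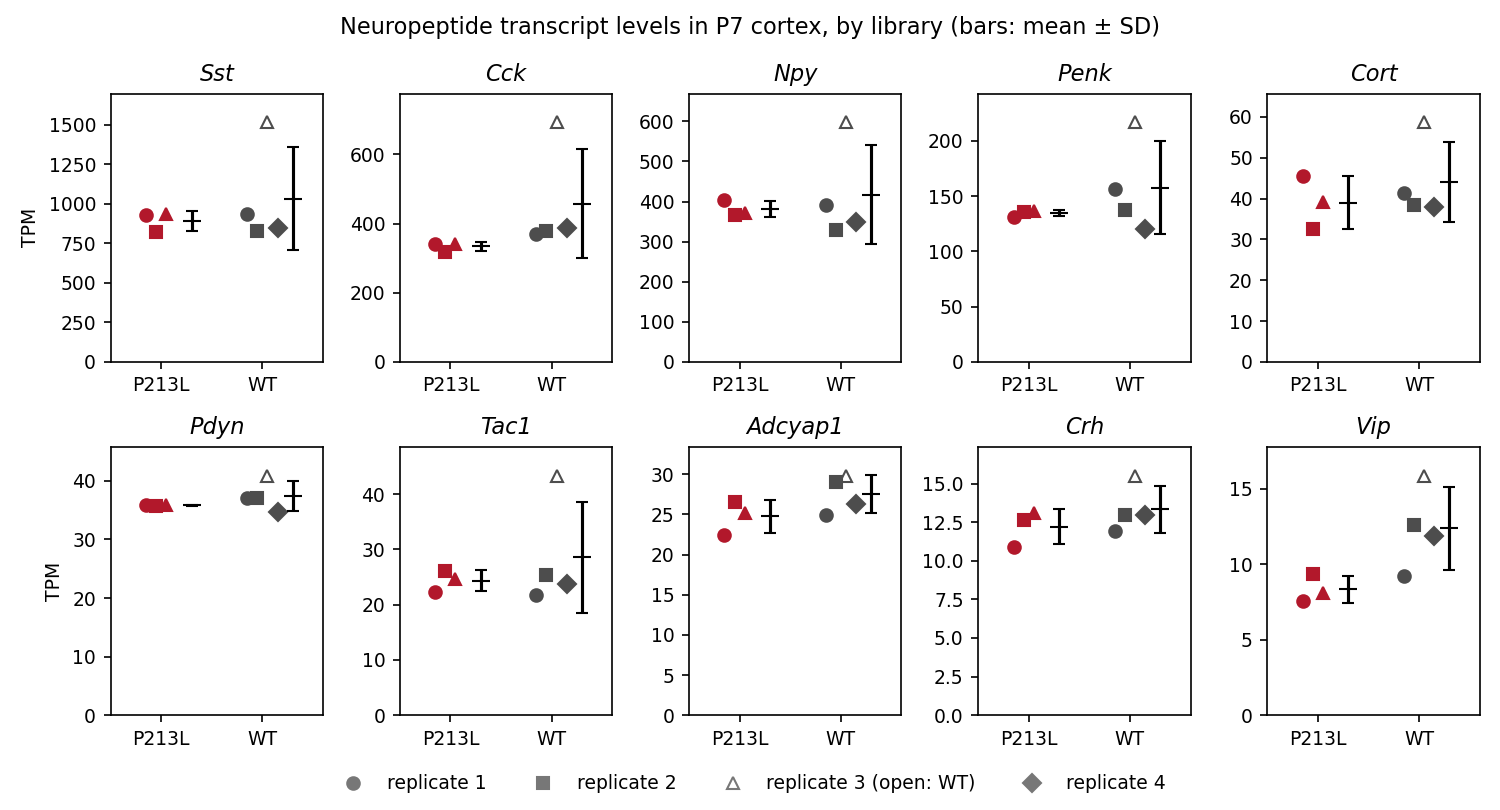
Transcript level in TPM (vertical axes, from 0) of each peptide gene in the 3 P213L libraries (red) and the 4 WT libraries (grey), with the mean and SD of each group as a bar and WT replicate 3 as an open triangle. The open triangle is the highest point in every panel, and for Cck all 3 P213L values (318.5 to 342 TPM) lie below all 4 WT values (371 to 693 TPM).

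Vip encodes vasoactive intestinal peptide, the marker of interneurons that mainly inhibit other interneurons (mm10, chromosome 10, 5639218 to 5647617, plus strand). It stood at 7.54, 9.34 and 8.12 TPM in P213L replicates 1 to 3, and at 9.19, 12.6, 15.9 and 11.9 TPM in WT replicates 1 to 4. The P213L values were the lowest apart from WT replicate 1, which lay just under P213L replicate 2. The means were 8.33 ± 0.922 TPM in P213L (SD, n = 3) and 12.4 ± 2.75 TPM in WT (SD, n = 4), a log2 fold change of -0.53 ± 0.19 (SE; limma p = 0.0227, adjusted p = 0.827; exact permutation p = 0.0857, two-sided). Without WT replicate 3 the fold change was -0.40 ± 0.14 (limma p = 0.0194, adjusted p = 0.532; exact permutation p = 0.2). It stayed between -0.66 and -0.40 when any 1 library was left out, and was -0.51 with a trend on transcript length removed from each library. Without WT replicates 2 and 3 together it was -0.32. Its unadjusted p in limma was above 0.05 in that fit, and also without P213L replicate 1, P213L replicate 3 or WT replicate 2.

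Other genes of the Vip class and its neighbours gave mixed values. Calb2, the calcium-binding protein calretinin found in part of the Vip cells, stood at 92.8, 95.4 and 92.1 TPM in P213L and at 88.7, 80.9, 124 and 77.2 TPM in WT, so that P213L was the higher group once WT replicate 3 was left out (log2 fold change 0.19). Htr3a, the serotonin receptor shared by interneurons from the caudal ganglionic eminence, had a log2 fold change of -0.08 and Prox1, a transcription factor of the same lineage, one of 0.34 (0.12 without WT replicate 3), and both groups of each overlapped. Lamp5, a membrane protein that marks neurogliaform interneurons of that origin, stood at 31.8, 37.8 and 34.1 TPM in P213L and at 46.0, 40.2, 42.7 and 43.4 TPM in WT. Of the 33 interneuron genes listed, Lamp5 was the 1 that was lower in every P213L library than in any WT library. That pattern was seen in 2.75% of tested genes, and the reverse in 5 of the 33 (5.94% of tested genes). The log2 fold change of Lamp5, -0.32 ± 0.11 (SE), had a limma adjusted p of 0.827 and an exact permutation p of 0.0286, the floor for 35 splits. It was -0.32 without WT replicate 3 as well. Markers of some other cell types moved in the same direction as Vip and Cck. All 12 microglial genes had fold changes below 0 (9 without WT replicate 3), against 36.6% of all tested genes (50.3%). Their summed level was 391 to 406 TPM in P213L and 408 to 489 TPM in WT. Below 0 were also 6 of 10 astrocyte genes (9 without WT replicate 3) and 7 of 8 choroid plexus genes (8). The choroid plexus direction did not hold without WT replicate 2, the library high in Ttr. In that fit 5 choroid plexus genes were tested, with 1 below and 4 above 0, and 5 of 10 astrocyte genes were below 0. The part of these cell types in the result was not tested.

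Cck encodes cholecystokinin (mm10, chromosome 9, 121489824 to 121495694, minus strand). Its values were 341, 318.5 and 342 TPM in P213L and 371, 379.6, 693 and 386.5 TPM in WT. Cck was the only peptide gene whose groups did not overlap, 1 of 10 against 2.75% of all tested genes with P213L below WT and 8.69% in either direction. The means of 334 ± 13.3 TPM in P213L (SD, n = 3) and 457 ± 157 TPM in WT (SD, n = 4) gave a log2 fold change of -0.40 ± 0.22 (SE; limma p = 0.11, adjusted p = 0.827; exact permutation p = 0.114). Without WT replicate 3 the fold change was -0.18 ± 0.05 (limma p = 0.0116, adjusted p = 0.514; exact permutation p = 0.1, the floor for 3 against 3 libraries) and the remaining WT libraries averaged 379 ± 7.97 TPM. A trend on transcript length, when removed, left -0.30.

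The somatostatin family did not separate the groups. Sst, the commonest transcript of the 10, marks interneurons that target dendrites (mm10, chromosome 16, 23889573 to 23890958, minus strand). It stood at 926, 819 and 933 TPM in P213L and at 937, 828, 1516 and 847 TPM in WT. The groups overlapped, with a log2 fold change of -0.16 ± 0.21 (SE, limma adjusted p = 0.833, exact permutation p = 0.714) and one of 0.04 ± 0.08 without WT replicate 3. Its 95% interval without that library, from -0.15 to 0.22, includes changes in either direction. Cort encodes cortistatin, a peptide that binds the same receptors as somatostatin (chromosome 4, 149125034 to 149126763, minus strand). Its values were 45.4, 32.5 and 39.2 TPM in P213L and 41.4, 38.5, 58.7 and 38.0 TPM in WT, and its log2 fold change was -0.16 ± 0.19 with all libraries and -0.02 ± 0.12 without WT replicate 3 (SE). The longest run of bases that transcripts of Sst and Cort share was 21.

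Npy, a peptide found in neurogliaform cells and in part of the Sst interneurons (chromosome 6, 49822710 to 49829507, plus strand), had a profile like that of Sst. Its values were 404, 367 and 370.4 TPM in P213L and 393, 330.2, 598 and 348 TPM in WT. The groups overlapped, with a log2 fold change of -0.09 ± 0.20 (SE; limma adjusted p = 0.888), and its sign turned without WT replicate 3 (0.09 ± 0.08). Over the 7 libraries, log2 levels of Npy and Sst had a Pearson r of 0.974, and over the 6 other than WT replicate 3 one of 0.761.

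The opioid precursors varied least among the P213L libraries. Penk, which encodes the enkephalins (chromosome 4, 4133531 to 4138819, minus strand), stood at 132, 136 and 137 TPM in P213L and at 157, 137, 217 and 120.2 TPM in WT. Pdyn, which encodes dynorphin (chromosome 2, 129686565 to 129699844, minus strand), stood at 35.9, 35.7 and 35.8 TPM in P213L and at 37.0, 37.1, 40.9 and 34.7 TPM in WT. The P213L values of Pdyn spanned 35.7 to 35.9 TPM and lay within the WT range. Log2 fold changes were -0.19 ± 0.19 for Penk and -0.06 ± 0.10 for Pdyn (SE; limma adjusted p = 0.827 and 0.858), and -0.03 and -0.02 without WT replicate 3. An antisense transcript, A830012C17Rik, shares 233 exon bases with Penk, and the sources used here do not state whether reads were counted by strand.

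Tac1, Crh and Adcyap1 had overlapping groups too. Tac1, the precursor of substance P (chromosome 6, 7554879 to 7565834, plus strand), stood at 22.3, 26.0 and 24.6 TPM in P213L and at 21.8, 25.3, 43.4 and 23.7 TPM in WT, with a log2 fold change of -0.18 ± 0.23 that was 0.04 ± 0.09 without WT replicate 3 (SE). Crh encodes corticotropin-releasing hormone, which in the cortex is made by interneurons (chromosome 3, 19693401 to 19695396, minus strand). Its values were 10.9, 12.6 and 13.1 TPM in P213L and 11.9, 12.9, 15.5 and 13.0 TPM in WT. Adcyap1 encodes PACAP, a peptide related to Vip and made by excitatory neurons in the cortex (chromosome 17, 93199017 to 93206537, plus strand), and stood at 22.5, 26.6 and 25.2 TPM in P213L and at 24.9, 29.1, 29.8 and 26.3 TPM in WT. Log2 fold changes were -0.12 ± 0.13 for Crh and -0.15 ± 0.12 for Adcyap1 (SE; limma adjusted p = 0.827 for both), and -0.05 and -0.11 without WT replicate 3. The 3 genes with a match to the response element had fold changes of -0.53 for Vip, -0.16 for Sst and -0.15 for Adcyap1. Without WT replicate 3 these were -0.40, 0.04 and -0.11. Crh and Penk had no window to search, and a link between the element and the fold changes was not tested.

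**Figure D2:**
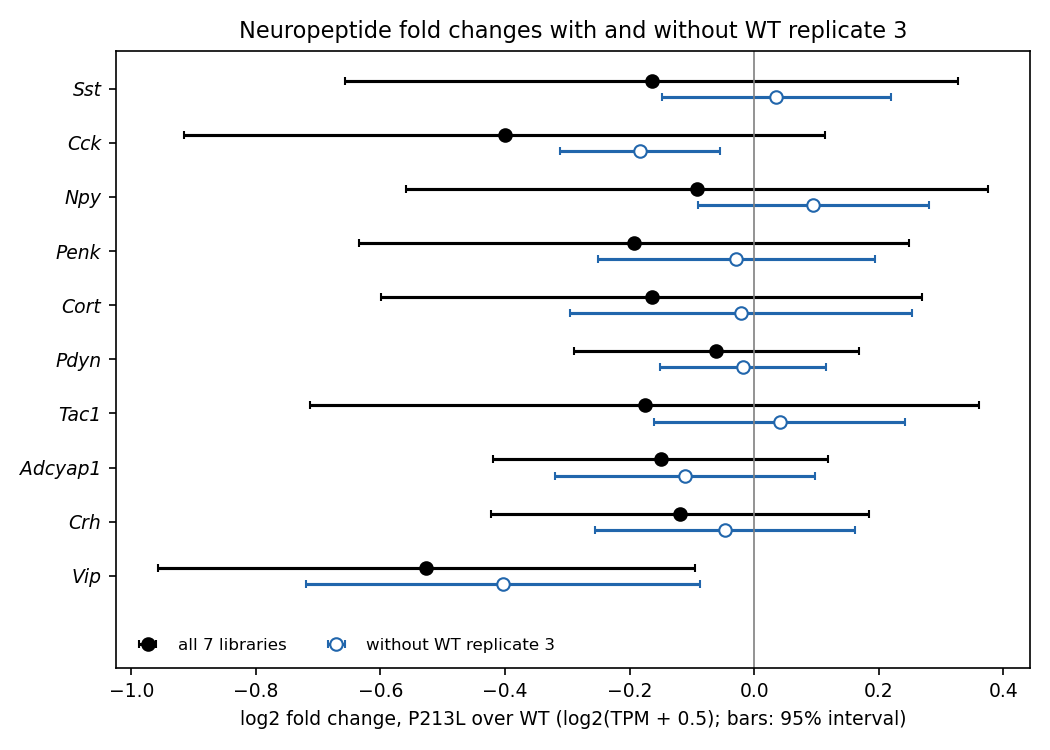
Log2 fold change of P213L over WT (horizontal axis, log2(TPM + 0.5), bars 95% intervals from limma) for each peptide gene, with all 7 libraries (black) and without WT replicate 3 (open blue). Without that library the intervals narrow, and those of Vip and Cck alone leave out 0, before any adjustment for the number of genes tested.

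In level, Sst was the highest of the 10 in every library and held 45.2 to 48.4% of their summed TPM. Together Sst, Npy and Cck held 84.0 to 87.0%. Npy lay above Cck in all 3 P213L libraries and in 1 of the 4 WT libraries, so the order of these neighbours was not fixed. Penk came next in all 7, and Cort lay above Pdyn in 6 of 7. Tac1 lay above Adcyap1 in 1 of 7, WT replicate 3, and the pair was close in P213L, at 24.3 ± 1.90 and 24.7 ± 2.10 TPM (SD, n = 3). Crh and Vip were the lowest, with Crh above Vip in 6 of 7 libraries, the exception being WT replicate 3. The sum of the 10 was 1784 to 1948 TPM in P213L, against 3228 TPM in WT replicate 3 and 1831 to 2004 TPM in the other WT libraries.

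A ratio of 2 genes in the same library does not depend on how that library was scaled, so all 45 ratios among the 10 genes were formed. The groups did not overlap for 6 of them, 13.3%, against 9.37% of all pairs of tested genes that were above 0 in every library. Each of these 6 held either Vip or Cck. The count was 7 without WT replicate 3, 15.6% against 14.99% of all pairs, and the added pair, Tac1 over Adcyap1, held neither. The level of Sst over that of Cck was 2.71, 2.57 and 2.73 in P213L and 2.53, 2.18, 2.19 and 2.19 in WT, and that of Npy over Cck was 1.18, 1.15 and 1.08 in P213L and 1.06, 0.870, 0.862 and 0.902 in WT. In both, WT replicate 3 was close to WT replicates 2 and 4. Vip over Adcyap1 was 0.336, 0.351 and 0.323 in P213L and 0.370, 0.434, 0.532 and 0.452 in WT, and the ratios of Vip to Crh and to Tac1 were also lower in all P213L libraries, as was Cck over Pdyn. These ratios share genes with each other and are given as a description.

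Peptide levels were also set against general GABAergic transcripts of the same library, the mean log2 level of Gad1, Gad2 and Slc32a1, which make GABA and load it into vesicles. Relative to that mean, Vip had log2 values of -3.51, -3.42 and -3.55 in P213L and of -3.37, -2.97, -2.21 and -2.92 in WT. The groups did not overlap, and the difference was -0.63 (exact permutation p = 0.0571, two-sided). Without WT replicate 3 the difference was -0.41 (exact permutation p = 0.1, the floor there). For the other 9 genes they overlapped, with differences from -0.50 (Cck, exact permutation p = 0.257) to -0.16 (Pdyn, exact permutation p = 0.486), and without WT replicate 3 these were -0.19 and -0.02. The comparator itself was lowest in WT replicate 3, at 6.24 against 6.52 to 6.72 in the other 6 libraries.

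**Figure D3:**
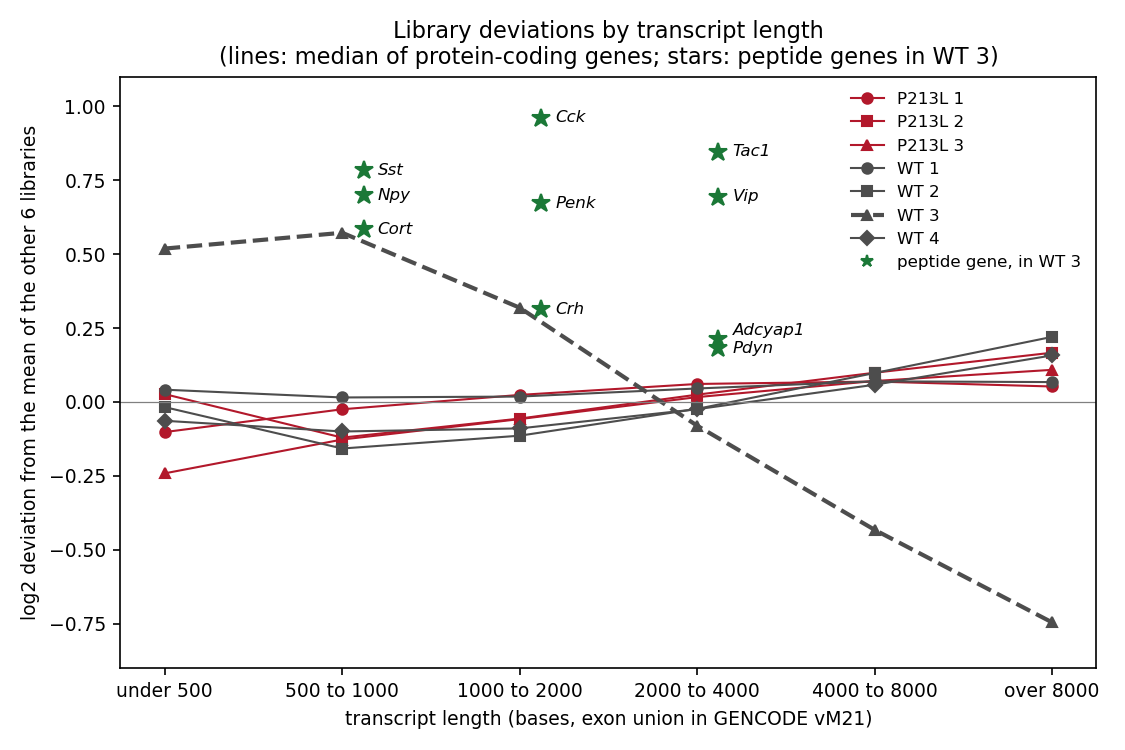
Deviation of each library from the mean of the other 6 in log2(TPM + 0.5) (vertical axis), by transcript length in bases (horizontal axis). Lines join the median over protein-coding genes in each of 6 length bins, red for P213L and grey for WT, the dashed line being WT replicate 3, and stars are the peptide genes in WT replicate 3, drawn at their own length bin. Cort lies near that library's line (0.58, against 0.57), and Sst and Npy lie above it (0.78 and 0.70, against 0.57). Cck, Tac1 and Vip lie furthest above it (0.96, 0.85 and 0.69, against 0.32, -0.08 and -0.08).

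The deviation of WT replicate 3 followed transcript length over all genes. The peptide genes had a median of 1477 bases, against 3849 for all tested genes, and ran from 566 (Npy) to 3777 (Adcyap1). Cort (677 bases) deviated by 0.58 and Crh (1320 bases) by 0.31, close to the medians of their length bins, 0.57 and 0.32. Tac1 (3399 bases) and Vip (3402 bases) deviated by 0.85 and 0.69, where genes of 2000 to 4000 bases had a median of -0.08. Penk deviated by 0.67 against 0.32, Pdyn by 0.18 and Adcyap1 by 0.21, both against -0.08. Sst, Npy and Cck also lay above the medians of their bins. How much of the rise in WT replicate 3 goes with length was not tested. With the trend on length removed, all 10 fold changes were still below 0, with a median of -0.10.

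Receptors for these peptides had no gene past adjustment in limma. Of 21 listed, 18 were tested and 3 (Cckar, Tacr2 and Oprm1) had a mean under 1 TPM. Fold changes were above 0 for 15 and below 0 for 3, with a median of 0.11, where 63.4% of all tested genes were above 0. The split of these 18 was 9 and 9 without WT replicate 3, and was again even after quantile normalization or scaling by median of ratios. Adcyap1r1, the PACAP receptor, was the most abundant, at 147, 143 and 149 TPM in P213L and 146, 153, 84.9 and 153 TPM in WT. Sstr2, a somatostatin receptor that inhibits firing, averaged 54.6 TPM in P213L and 54.1 TPM in WT, and Npy1r 24.8 TPM in P213L and 23.6 TPM in WT. Tacr3, the neurokinin B receptor, was the 1 of 18 receptors with an unadjusted p under 0.05 in limma, against 3.74% of all genes (log2 fold change 0.38 ± 0.16, SE), and 0 of them reached it without WT replicate 3 (Tacr3 then 0.34). Tacr3 stood at 5.34, 8.31 and 6.59 TPM in P213L and 5.02, 5.05, 4.63 and 5.35 TPM in WT. WT replicate 3, highest for the peptides, held the lowest value of 14 of the 18 receptors and of 55.0% of all tested genes. Sstr4 stood at 4.32 TPM there, against 46.0 to 52.3 TPM in the other 6 libraries.

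The genes that cut, amidate and store peptides had more fold changes below 0 than above. All 17 of this list were tested, 13 had fold changes below 0, with a median of -0.08, and none passed adjustment in limma. Of all tested genes, 36.6% were below 0. Without WT replicate 3, 14 were below 0 and the median was -0.10, against 50.3% of all genes below 0. For 4 genes every P213L library was under every WT library, where 2.75% of all tested genes did so. Scg5 (7B2, the chaperone of the convertase PC2) stood at 251, 248 and 237 TPM in P213L and at 274, 301, 492 and 332 TPM in WT, with a log2 fold change of -0.47 ± 0.19 (SE; limma adjusted p = 0.827; exact permutation p = 0.0571) and one of -0.29 without WT replicate 3. Pcsk2, which encodes PC2 itself, stood at 74.7, 79.4 and 77.4 TPM in P213L and at 86.5, 92.8, 79.7 and 88.1 TPM in WT. Cpe, the carboxypeptidase that trims peptide ends, averaged 2277 TPM in P213L and 2575 TPM in WT, and the granule protein Chgb 386 TPM in P213L and 444 TPM in WT. Pcsk1, Scg2, Chga and Vgf were also below 0 but had overlapping groups, with log2 fold changes of -0.06, -0.07, -0.11 and -0.09. With the 3 WT libraries other than replicate 3, the count was 6 of 17 below and 0 above, against 6.89% and 7.33% of all genes.

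**Figure D4:**
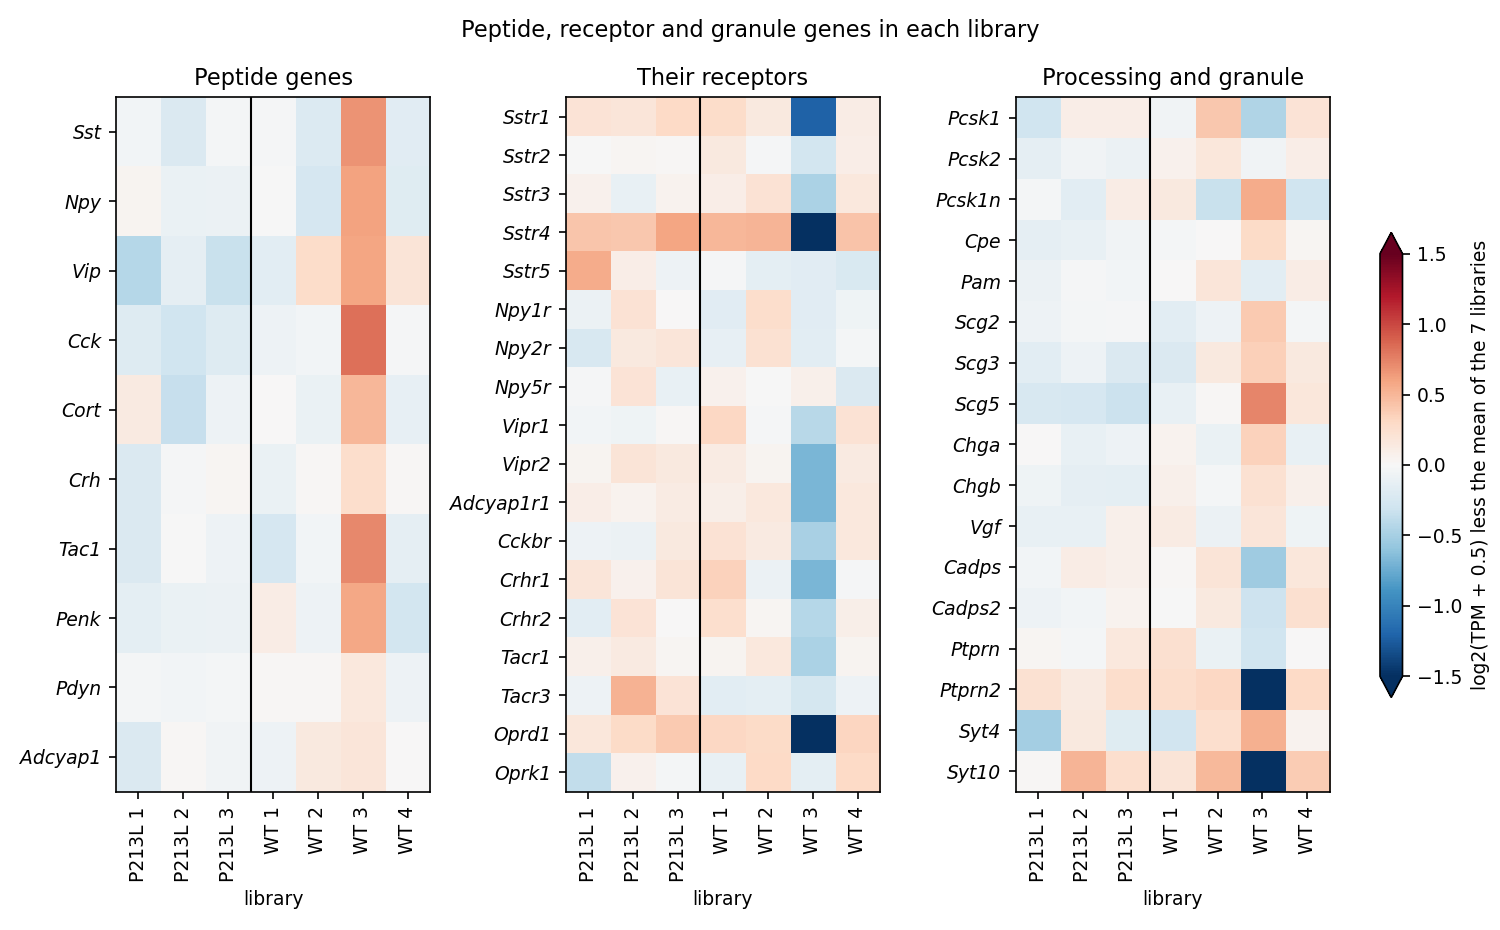
Level of each tested gene in each library as log2(TPM + 0.5) less its mean over the 7 libraries (colour, red above and blue below, limited at 1.5), for the peptide genes, their receptors and the processing and granule genes, with the 3 P213L libraries left of the line. The WT 3 column is red for all 10 peptide genes and blue for most receptors.

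Interneuron genes as a class were not lower. Of 33 listed, all tested, 26 (78.8%) had fold changes above 0 with a median of 0.15, against 63.4% and 0.07 for all tested genes. Without WT replicate 3, 18 (54.5%) were above 0 with a median of 0.03, against 49.7% of all tested genes. That library held the lowest value of 23 of the 33, and of 55.0% of all tested genes. Sp9 (a transcription factor of young interneurons) averaged 18.4 TPM in P213L and 14.0 TPM in WT, with all P213L values above all WT values, as were 5 of the 33 against 5.94% of all tested genes. Lhx6, which specifies the Sst and parvalbumin lineages, was another of the 5, at 39.3, 38.9 and 39.1 TPM in P213L and 36.1, 36.2, 17.9 and 31.8 TPM in WT. None passed adjustment in limma, and 3 higher and 1 lower had an unadjusted p under 0.05, against 2.36% and 1.38% of all genes. These counts were 7 and 2 without WT replicate 3, where 8.65% of all genes reached that level in either direction.

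Other neuropeptide genes, a list of 30 of which 19 were tested, were split 6 above and 13 below 0, where 36.6% of all tested genes were below. Without WT replicate 3 the split was 9 to 9 of 18, where 50.3% of all genes were below 0. WT replicate 3 held the highest value of 12 of the 19. Nts (neurotensin) stood at 44.0, 55.6 and 55.3 TPM in P213L and at 37.6, 48.5, 90.8 and 51.3 TPM in WT, its log2 fold change being -0.07 with all libraries and 0.18 without WT replicate 3. Tac2 (neurokinin B) stood at 8.68, 8.58 and 10.8 TPM in P213L and 12.1, 10.7, 12.1 and 10.4 TPM in WT. Pmch, a peptide of the hypothalamus, averaged 0.259 TPM in P213L and 0.264 TPM in WT. Activity-regulated genes, several of them CREB targets, had more fold changes above 0 than below, as did all tested genes. Fos stood at 23.0, 13.5 and 10.9 TPM in P213L and at 8.61, 10.01, 6.96 and 7.07 TPM in WT. On that list 16 of the 22 genes were above 0, 72.7% against 63.4% of all tested genes. Without WT replicate 3 the count was 12, 54.5% against 49.7%. An unadjusted limma p under 0.05 was reached by 4 of the 22 as higher and 0 as lower, against 2.36% and 1.38% of all genes. Without WT replicate 3 these were 5 and 1, where 8.65% of all genes reached that level in either direction. For 4 of the 22 every P213L value lay above every WT value, against 5.94% of all tested genes, and for 0 below. None of the 22 passed adjustment in limma. Of the 14 genes for CREB, its coactivators and protein kinase A, 0 had groups that did not overlap, against 8.69% of all genes.

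By likeness of pattern over all 7 libraries, the protein-coding genes closest to the mean profile of the 10 peptides were Ndufc1, Slc25a14, Slc25a3, Rer1 and Sephs2, with Pearson r of 0.994 to 0.997. This likeness rests on the high values in WT replicate 3, and 12 of the 13695 genes compared exceeded 0.99. Without that library the closest were Slc25a12, Hdac4, Pcolce2, Myrip and Marveld2 (r of 0.968 to 0.987 over 6 libraries). The profile itself then had little unity, since the 45 correlations between peptide genes had a median of 0.03 with 22 below 0, against a median of 0.82 with none below 0 over all 7.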

How the data were processed

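Per the labels' protocols, TRIzol RNA from fresh cortex was made into stranded poly(A) libraries. The submitters' processing notes name HISAT2, HTSeq and mm10. The sources used here state no versions, annotation, gene lengths or strand setting. The authors deposited TPM values (per the file headers), scaled to 1000000 per library, so a shift in abundant or long transcripts moves all other values, and read totals are lost. Depth was estimated by multiplying TPM by exon-union length (GENCODE vM21, mm10) and taking the commonest low value as 1 counted unit.

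Groups follow the sample titles. log2(TPM + 0.5) was fitted with limma 3.58.1 in R 4.3.3 (mean-variance trend, two-sided, Benjamini-Hochberg over all genes, threshold 0.05) for the 17582 genes averaging 1 TPM or more, which all 10 peptide genes passed, and checked on simulated data. Fold changes on this scale understate low genes. Exact permutation over 35 splits was used for one gene at a time (smallest p 0.0286). Named genes were all peptide genes, up to 4 with the smallest p in each list, a set of markers and the 5 most alike in pattern; the genes outside that rule (Calb2, Htr3a, Prox1, Sstr4, Scg2, Chga, Nts, Pmch, Lhx6) were chosen after their values were seen, as were the response element, the ratios and their share over all gene pairs. The peptide genes and all lists were chosen with earlier results of these data known. Python 3.11.15, pandas 2.3.3 and matplotlib 3.10.9 were used.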

Additional observations from a re-analysis of the deposited data

Results flagged for a closer look

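Of 20 sets of 4 WT values checked (the TPM of each peptide gene and its level relative to Gad1, Gad2 and Slc32a1), 9 had 1 library far from the other 3, always WT replicate 3 and always on the high side. Chance flags about 1 in 20 independent groups, but these sets share the same 4 libraries and the 2 measures of a gene are not independent. The share of all tested genes that this rule flags was not computed, so the count is not a result about the peptides. In TPM the flagged values were Sst at 1516, Cck at 693, Cort at 58.7 and Tac1 at 43.4. In log2 units relative to the GABAergic genes they were Sst at 4.32, Cck at 3.19, Cort at -0.36, Tac1 at -0.79 and Pdyn at -0.87. The same library held the highest value of 21.6% and the lowest of 55.0% of all tested genes. Its mean of Gad1, Gad2 and Slc32a1 was also the lowest, at 6.24, which raises every relative level there. It was low in long transcripts and in most receptor genes, and what set it apart was not tested.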

How the results depend on the processing

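Fold changes of the 10 peptide genes were refitted under 21 alternatives, 2 of them (the length trend removed, and median-of-ratios scaling without WT replicate 3) chosen after seeing the data. All 10 stayed below 0 under the other pseudocounts, filters and scalings, without the mean-variance trend, with a robust fit, with the replicate block, with the length trend removed and without any library other than WT replicate 3. Signs turned for Sst, Npy and Tac1 without WT replicate 3 (0.0355, 0.0947 and 0.0406), also with median-of-ratios scaling (0.0349, 0.0941 and 0.0399), and without WT replicates 2 and 3 (1.07e-04, 0.0403 and 0.0919, with Vip at -0.32). Their levels relative to GABAergic genes likewise turned without WT replicate 3 (0.0318, 0.0910 and 0.0368). With sample weights, Sst, Npy, Cort, Tac1, Penk and Pdyn were at 0.105, 0.0986, 0.0184, 0.0325, 0.112 and 0.0212, Vip at -0.51 and Cck at -0.19. The last pair, 2 of the 10, passed the threshold, as did 3981 of the 17582 genes tested, against 0 in the unweighted fit. The cause was not tested. Leaving out each library in turn gave -0.66 to -0.40 for Vip, -0.48 to -0.18 for Cck, -0.26 to 0.04 for Sst, -0.19 to 0.09 for Npy and -0.29 to 0.04 for Tac1. Relative to GABAergic genes the ranges were -0.41 to 0.03 for Sst, -0.34 to 0.09 for Npy and -0.42 to 0.04 for Tac1. No other alternative called a gene over the whole table, while 269 to 1571 genes had an unadjusted p under 0.05 when 1 library was left out. With the replicate block, Vip was at -0.54 and Cck at -0.46 (limma adjusted p = 0.759 for both) and 0 genes were called, with 500 at an unadjusted p under 0.05. No P213L library has number 4, so the block fit gave the same fold changes as the fit without WT replicate 4. The block is therefore not a separate check of the fold changes. Deviations of same-numbered libraries had correlations of 0.13, 0.17 and -0.10, and numbers 1 and 2 but not 3 matched best with their own. The labels do not say that a number marks a shared batch, and these values do not settle it. Depth is an estimate, and the smallest value of a peptide gene rested on 281 units.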
